A study of Rattus norvegicus with 3 samples.

Results

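The astroglial genes described here are 10 genes measured in radial glia of the embryonic rat cerebral cortex: Slc1a3, Aldoc, Mt3, Apoe, Sparcl1, Clu, Bcan, Luzp2, Zbtb20 and Ndrg2. They were chosen by name, as the rows with these symbols among the 29772 genes of the deposited matrices, and all 10 were found. A working label called them genes rising in radial glia, but no member was ordered E14, E16, E18 from lowest to highest in radial glia, so they are called here the astroglial genes. Freshly prepared cortical cells of wild-type rat embryos were sequenced singly with the 10x Genomics 3′ kit in 3 libraries, labelled with embryonic days 14, 16 and 18 (E14, E16 and E18). The tissue was dissociated with papain, no treatment is named, and the number, litter and sex of the embryos are not given in the sources used here. The protocol in the labels further mentions expansion in culture, multiplexing oligonucleotides, freezing and an antibody sort for human cells, none of which matches primary rat cortex. Each label has 1 library, so the libraries were compared without a replicate check and no p-value is given.

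Radial glia are the neural stem cells of the cortical ventricular zone. They divide to give intermediate progenitors and neurons first, and astrocytes later. As their output turns to glia they take on transcripts that mature astrocytes keep, among them a glutamate transporter, a brain aldolase, a metallothionein, lipid carriers and matrix proteoglycans.

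Genes of known timing went against the labels' order, and each library is therefore called the library labelled E14, E16 or E18. In radial glia, Hmga2, a chromatin protein of early neural stem cells, stood at 11.2 unique molecular identifiers (UMIs) per 1000000 UMIs in the library labelled E14, 223 in that labelled E16 and 20.8 in that labelled E18. Over the 8 measurable genes of a list of 10 early radial glia genes, the median log2 ratio was 1.92 (E16 over E14), -0.96 (E18 over E16) and 1.07 (E18 over E14). Crabp2, a retinoic acid carrier gene, had 7.201, 110 and 47.5, Igf2bp2, an RNA-binding protein gene, 30.9, 139 and 86.8, and Dct, 33.9, 72.0 and 86.8 in label order. Of the 8, 7 were highest in the library labelled E16, as were 26.5% of all genes of at least 5 CPM, and 7 were lowest in that labelled E14, as were 32.4% of all genes. Each ratio therefore compares labelled libraries, and their true ages are not known here.

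The files held 62740631, 80974234 and 73727823 UMIs in label order. After filtering, 4286, 4977 and 5431 cells remained, of which 435, 2929 and 1922 were radial glia with medians of 12743, 13574 and 12321 UMIs. Libraries shared 12 to 17 cell barcodes per pair. The radial glia carried their defining genes in every library: Sox2 at 807, 483 and 706, Pax6 at 309, 185 and 261 and Vim at 4724, 2187 and 2977 UMIs per 1000000 UMIs in label order. All 3 were thus in the same order as 9 of the 10 members, and the part of this in the members' differences was not tested. Levels are UMIs summed over the cells of a class per 1000000 UMIs of that class (CPM), with exact 95% Poisson intervals that cover counting error only. Log2 ratios and folds have 1 CPM added to both sides. Because the kit reads transcript ends, levels are compared between libraries and classes for 1 gene and not between genes.

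RefSeq promoter windows of the GRCr8 build, the 250 bases before the start, were found for 8 of the 10 genes; Clu and Zbtb20 had no entry. They are shown for Slc1a3 and Mt3, which both held the metal response element, and for Aldoc, whose level differed most widely among the abundant members. Capitals mark the metal response element TGCGCNC and the nuclear factor I half-site TTGGCA on either strand, and Aldoc held neither.
Slc1a3, first of 3 windows, chr2:59557809-59558058, minus strand: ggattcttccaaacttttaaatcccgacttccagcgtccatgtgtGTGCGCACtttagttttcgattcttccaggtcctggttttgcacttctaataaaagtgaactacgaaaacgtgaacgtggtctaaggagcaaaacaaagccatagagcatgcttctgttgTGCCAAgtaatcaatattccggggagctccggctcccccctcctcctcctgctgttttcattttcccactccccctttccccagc
Mt3, chr19:10856081-10856330, minus strand: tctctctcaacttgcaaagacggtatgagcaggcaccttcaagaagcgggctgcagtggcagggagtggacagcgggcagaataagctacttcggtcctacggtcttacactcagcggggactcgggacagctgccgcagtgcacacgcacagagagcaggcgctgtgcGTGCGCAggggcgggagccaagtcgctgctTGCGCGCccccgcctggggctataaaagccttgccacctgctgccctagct
Aldoc, chr10:63715294-63715543, plus strand: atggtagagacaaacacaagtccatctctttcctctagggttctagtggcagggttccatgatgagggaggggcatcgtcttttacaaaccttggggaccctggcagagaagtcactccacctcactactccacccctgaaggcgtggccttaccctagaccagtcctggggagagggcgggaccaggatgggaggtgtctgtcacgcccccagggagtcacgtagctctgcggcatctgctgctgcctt
The metal response element was present in 2 of the 8 genes, Slc1a3 and Mt3, and in 13.3% of the 27457 genes with a window. The nuclear factor I half-site was present in Slc1a3 and Apoe, and in 12.7% of all genes. The RBPJ core TGGGAA was present in Slc1a3 and Apoe (23.2% of all genes), and the E-box CACGTG in Luzp2 (6.18% of all genes). The SOX motif ACAATG and the STAT motif TTCNNNGAA were in none of the 8 genes, against 11.9% and 8.19% of all genes. Both strands were searched, and these matches describe letters, not sites. No motif was shared by more than 2 of the 8 genes.

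In radial glia all 10 genes were highest in the library labelled E14, as were 48.4% of the 9837 genes of at least 5 CPM. In 9 of them the library labelled E18 came second and that labelled E16 last, an order that 37.1% of these genes showed. Comparing E16 with E14, all 10 were at least 2-fold lower in E16, as were 6.94% of all genes, and none was at least 2-fold higher, as 2.43% of all genes were, with a median log2 ratio of -3.44 against -0.11 over all genes. Between the libraries labelled E18 and E16, 7 of 10 were at least 2-fold higher in E18, as were 2.42% of all genes, and none was at least 2-fold lower (0.559% of all genes); the median was 1.47 against 0.08. Between E18 and E14, 8 of 10 were at least 2-fold lower in E18, as were 2.85% of all genes, and none was at least 2-fold higher (1.17% of all genes); the median was -1.91 against -0.05.

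**Figure D1:**
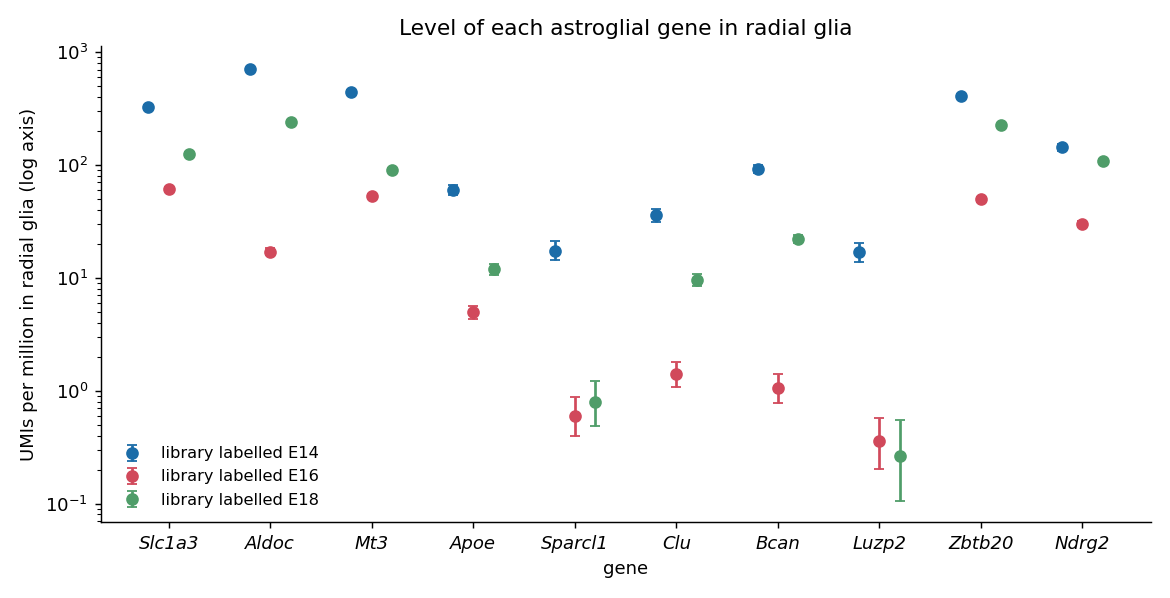
Level of each of the 10 genes in radial glia, in CPM on a log axis, for the 3 libraries; bars are exact 95% Poisson intervals of the summed counts (not of replicates) and are hidden by the point where narrow. The library labelled E14 is on top for every gene, and the intervals of the libraries labelled E16 and E18 overlap for Sparcl1 and Luzp2.

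Of the genes for uptake and metabolism, Slc1a3, the glial glutamate and aspartate transporter, had levels of 325, 61.4 and 125 CPM in label order, with intervals of 311 to 340, 59.2 to 63.8 and 121 to 130. The 3 intervals did not overlap, and the level was 5.23-fold lower in E16 than in E14. Slc1a5, a neutral amino acid transporter of the same family, stood at 4.32, 6.95 and 5.40 CPM, so it did not follow Slc1a3. Aldoc, the brain form of aldolase in glycolysis, was measured at 707, 17.05 and 238 CPM (intervals 687 to 728, 15.9 to 18.3, 232 to 244). Its library labelled E16 was 39.2-fold below that labelled E14 and 13.2-fold below that labelled E18. Aldoc was thus among the members with the widest span. Ndrg2, a cytoplasmic protein of the N-myc downstream-regulated family that astrocytes express, reached 143, 29.9 and 108 CPM (134 to 153, 28.3 to 31.6, 104 to 112). The libraries labelled E14 and E18 were closer for Ndrg2 than for any other member, the log2 ratio being -0.40 (-0.51 to -0.29).

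Mt3, the brain metallothionein that binds zinc and copper, gave 443, 53.4 and 89.7 CPM (427 to 460, 51.3 to 55.6, 86.1 to 93.3). The library labelled E14 stood apart, 8.16-fold above E16 and 4.90-fold above E18. Mt1 and Mt2A, the widely expressed metallothioneins, had the same order, with 119, 46.9 and 54.1 CPM for Mt1 and 124, 19.7 and 44.6 CPM for Mt2A. Mt4 stayed under 1 CPM in each library.

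Among the lipid carriers, Apoe, the main apolipoprotein of the brain, was at 60.0, 4.95 and 11.9 CPM in radial glia (54.1 to 66.4, 4.32 to 5.64, 10.6 to 13.3). Clu, the chaperone apolipoprotein clusterin, was at 36.0, 1.40 and 9.55 CPM (31.5 to 41.0, 1.07 to 1.79, 8.41 to 10.8). Neither gene's intervals overlapped between libraries. The lipoprotein receptor genes Lrp8 and Lrp1 had the same order over a smaller span, with 42.9, 18.1 and 29.5 CPM for Lrp8 and 32.8, 24.0 and 27.4 CPM for Lrp1.

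Of the matrix genes, Bcan, which encodes the brain-specific proteoglycan brevican, measured 92.7, 1.07 and 22.2 CPM (85.3 to 101, 0.786 to 1.41, 20.4 to 24.0). Its library labelled E16 was 45.3-fold below that labelled E14, the widest span of the 10 genes with 1 CPM added. The related lectican Ncan followed the same order at 21.3, 5.64 and 11.7 CPM. Vcan, another lectican, ran the opposite way, at 6.72, 39.8 and 26.0 CPM, its log2 ratio of E16 to E14 being 2.40 (2.01 to 2.81). Acan stayed under 1 CPM in each library.

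Sparcl1, which encodes the secreted synapse-promoting protein hevin, came to 17.4, 0.599 and 0.792 CPM (14.3 to 21.0, 0.395 to 0.872, 0.491 to 1.21). Only the library labelled E14 stood apart, and the other two overlapped. Its relative Sparc, a matrix glycoprotein gene, had 206, 43.8 and 50.6 CPM.

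Luzp2, a leucine zipper protein gene, came to 16.8, 0.355 and 0.264 CPM (13.7 to 20.3, 0.203 to 0.577, 0.106 to 0.544). The last 2 values rest on 16 and 7 UMIs and their intervals overlap, so Luzp2 did not share the second place of the library labelled E18. Zbtb20, a zinc finger transcription factor gene that acts in astrocyte formation, was found at 411, 49.5 and 225 CPM (396 to 427, 47.4 to 51.5, 220 to 231). The related repressor gene Zbtb18 had the same order at 135, 42.5 and 100.3 CPM, and Luzp1 did not, at 32.3, 47.5 and 40.9 CPM.

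Further astroglial genes had a smaller median difference. Of a list of 35, 23 reached 5 CPM in radial glia. Of these, 13 were at least 2-fold lower in E16 than in E14 (6.94% of all genes) and 1 was at least 2-fold higher (2.43% of all genes). The median log2 ratio was -1.13, against -0.11 over all genes. The median was 0.53 for E18 over E16 and -0.52 for E18 over E14, against 0.08 and -0.05 over all genes. At the low end for E16 over E14 were Tnc, which encodes the matrix protein tenascin C, at 109, 0.155 and 6.72 CPM, Mlc1, a glial membrane protein gene, at 54.4, 1.29 and 11.3 CPM, and Acsbg1, an acyl-CoA synthetase gene, at 14.6, 0.510 and 1.70 CPM. At the other end was Gja1, the connexin 43 gene, with 48.5, 112 and 82.8 CPM. Cst3, which encodes cystatin C, had 73.1, 113 and 89.7 CPM, and the receptor gene Fgfr3 had 77.9, 107 and 98.0 CPM. These 3 were highest in the library labelled E16, against the order of the 10 genes. Of the 23 genes, 13 had the order of 9 of the 10 members. The astrocyte filament gene Gfap had 6.88, 0.111 and 0.868 CPM, and the water channel gene Aqp4 had 1.28, 0.0222 and 0.0377 CPM. Both averaged under 5 CPM and are not among the 23, and their lowest values rest on very few UMIs.

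Some measures of the radial glia moved with the library. The median mitochondrial share was 5.35%, 3.57% and 4.43% in label order, the same order as that of 9 of the 10 genes. Among cells with at most 5% mitochondrial UMIs and at least 2000 genes, which kept 130 radial glia labelled E14, the median log2 ratio for E16 over E14 was -3.52. The 9 intermediate progenitor markers summed to 1706, 469 and 1019 CPM in radial glia, and none of them was at 0. The 13 markers of maturing neurons summed to 643, 339 and 383 CPM. Oligodendrocyte precursor markers, 7 in number, summed to 7.68, 2.04 and 5.17 CPM, with 3, 0 and 2 of them at 0. The 8 markers of the GABAergic lineage summed to 8.16, 2.35 and 2.15 CPM, with 1, 3 and 2 at 0. Their part in the results was not tested. Markers of endothelial cells, which hold much Apoe and Sparcl1, summed to 1.76, 2.75 and 2.30 CPM over 8 genes, and those of microglia to 3.36, 3.00 and 1.962 CPM over 9. Both sums differed by less than 2-fold between any pair of libraries, and 4 of the 8 and 3 of the 9 were at 0 in the library labelled E14. The 9 choroid plexus markers summed to 3.20, 13.5 and 41.5 CPM in radial glia, 37.9 of the last being Ttr, with 5, 3 and 2 at 0. That sum was higher in E18 than in E16, as Clu, Apoe and Ndrg2 were, and its part in their levels was not tested.

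The clusters that made up the radial glia differed between libraries, although the 10 genes were left out of the clustering. Clusters 0, 7 and 15 came mostly from the library labelled E16, and clusters 1 and 11 from those labelled E14 and E18. Aldoc and Slc1a3 were among the leading genes of cluster 1. Cluster 5, led by mitotic genes such as Ube2c, Cdc20 and Ccnb1, held 72, 495 and 338 cells in label order. Within cluster 5 all 10 genes were lower in E16 than in E14, as were 56.2% of all genes of at least 5 CPM there, with a median log2 ratio of -3.11 against -0.08 over all genes. There Bcan was at 77.3, 0.652 and 22.4 CPM and Aldoc at 386, 11.5 and 141 CPM. The median in cluster 5 was 1.76 for E18 over E16 and -1.49 for E18 over E14, against 0.08 and -0.01 over all genes. Luzp2 had no UMI in cluster 5 of the library labelled E18, which puts it at least 33.0-fold below the 18.9 CPM of that labelled E14 at a floor of 3 counts with no CPM added (-3.66 on the log2 scale with 1 CPM added).

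Cluster 1 held 250, 66 and 810 cells. Within it all 10 genes were again lower in E16 than in E14, as were 53.6% of all genes, with a median of -3.07 against -0.05 over all genes. All 10 were also lower in E18 than in E14, as were 57.2% of all genes, with a median of -2.19 against -0.07. Between E18 and E16 its median was 0.57, with median limits of -0.14 and 1.54, and 6 of 10 genes were higher in E18, as were 48.8% of all genes. Slc1a3 there was at 156 and 140 CPM in the libraries labelled E16 and E18, an interval overlap that the radial glia as a whole did not show, and Mt3 was lower in E18, at 146 and 100.1 CPM. Bcan had no UMI in cluster 1 labelled E16, at least 21.98-fold below E14 at the same floor with no CPM added (-4.17 on the log2 scale with 1 CPM added), and Sparcl1, Clu and Luzp2 had 1 UMI each there.

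**Figure D2:**
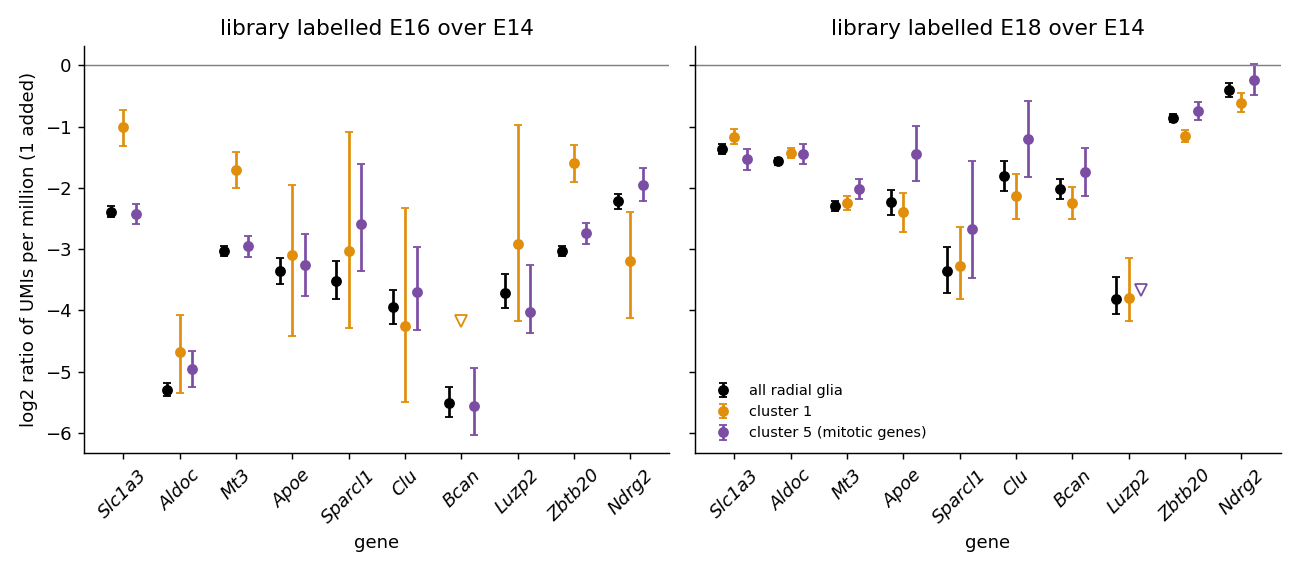
Log2 ratio of each gene's CPM, with 1 added, for the library labelled E16 over E14 and for that labelled E18 over E14, in all radial glia, in cluster 1 and in cluster 5; bars are exact 95% counting intervals and open triangles mark genes with no UMI in the numerator, drawn at the floor of 3 counts as an upper bound. All points lie below 0, and the bar of Ndrg2 in cluster 5 for E18 over E14 reaches above 0.

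Radial glia were also split by the cell cycle genes detected, which does not show that cells without them were not cycling. Radial glia with no UMI of the cell cycle genes after thinning to 2000 UMIs numbered 61, 49 and 110 in label order. In them Aldoc stood at 896, 66.3 and 312 CPM (827 to 970, 46.2 to 92.2, 280 to 345) and Slc1a3 at 281, 58.7 and 144 CPM (243 to 323, 39.9 to 83.4, 123 to 167). Both kept the order seen in all radial glia. Sparcl1, Clu, Bcan and Luzp2 had 0 UMIs in the 49 cells labelled E16. In cells with 3 or more such UMIs, Aldoc had 649, 15.9 and 229 CPM. Within each library, Aldoc was therefore higher in the cells without cell cycle UMIs than in those with 3 or more, and the intervals did not overlap. Over 18 cell cycle genes the median log2 ratio in radial glia was 0.12 for E16 over E14.

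The genes were next compared between radial glia and neurons. All neurons together, 2883, 763 and 2393 cells in label order, were used, because newborn excitatory neurons numbered only 3 in the library labelled E16. These pools sit in different clusters. That labelled E16 held 555 cells of cluster 13, led by Calb1, Calb2 and Lhx9, with 130 Cajal-Retzius cells and 74 of the GABAergic lineage, whereas those labelled E14 and E18 held mainly excitatory neurons of clusters 2, 3 and 8 and of clusters 4, 6 and 12. In the cells so pooled, all 10 genes of the library labelled E14 were higher in radial glia than in neurons, as were 59.9% of all genes, 8 of them at least 2-fold, where 20.1% of all genes were, and none was at least 2-fold lower (13.7% of all genes), with a median log2 ratio of 3.82. For the library labelled E18, 6 were at least 2-fold higher (16.8% of all genes), 2 were at least 2-fold lower (14.2% of all genes) and the median was 1.49. For that labelled E16, 3 were at least 2-fold higher (16% of all genes), 3 were at least 2-fold lower (15.3% of all genes) and the median was -0.10. Cluster 14, with 521 cells labelled E14 and all 10 newborn neuron markers raised, was given no class and is not among these neurons. In its E14-labelled cells Zbtb20 was at 412 CPM (392 to 433), level with the 411 CPM of radial glia, and Aldoc at 197 CPM, above the 50.7 CPM of all neurons.

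Slc1a3 and Ndrg2 separated radial glia from neurons in every library. Slc1a3 was at 1.999, 2.20 and 1.90 CPM in neurons, 109-fold, 19.5-fold and 43.7-fold below radial glia of the same library. Ndrg2 was at 1.24, 3.22 and 3.41 CPM in neurons, 64.4-fold, 7.32-fold and 24.7-fold below. Mt3 was also higher in radial glia in each library, at 22.8, 15.8 and 33.2 CPM in neurons. Aldoc was not: at 50.7, 36.8 and 79.1 CPM in neurons, it was lower in radial glia than in neurons of the library labelled E16, the log2 ratio being -1.06 (-1.27 to -0.86). Zbtb20 was lower there too, at 49.5 CPM in radial glia and 73.2 CPM in neurons, a log2 ratio of -0.56 (-0.70 to -0.42). Sparcl1 and Clu were lower in radial glia than in neurons of the libraries labelled E16 and E18, with log2 ratios of -1.24 and -2.45 for Sparcl1 and of -1.21 and -0.71 for Clu. Luzp2 stood at 10.4, 0.439 and 4.34 CPM in neurons, above its radial glia in the library labelled E18 and level with them within the interval in that labelled E16.

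Newborn and maturing excitatory neurons were compared in the libraries labelled E14 and E18. Mt3, Sparcl1, Clu and Luzp2 were higher in maturing than in newborn excitatory neurons, while Zbtb20, Bcan, Aldoc and Apoe were lower in both libraries. For Slc1a3 both intervals reached 0, and Ndrg2 was lower in maturing neurons of the library labelled E18 (log2 ratio -1.54), with an interval reaching 0 in that labelled E14. In E18-labelled cells, Clu was at 2.39 CPM in newborn and 43.4 CPM in maturing neurons, or 3.71 (3.16 to 4.26) as a log2 ratio. Mt3 went from 7.46 to 83.9 CPM and Sparcl1 from 1.49 to 27.2 CPM there. In E14-labelled cells the log2 ratios were 1.70 for Clu, 0.88 for Mt3 and 1.78 for Sparcl1. Zbtb20 went the other way, from 214 CPM in newborn to 53.2 CPM in maturing neurons of the library labelled E18 and from 158 to 62.2 CPM in that labelled E14. The neurons of each stage came mostly from different clusters, newborn ones from cluster 3 (E14) and 6 (E18) and maturing ones from clusters 2 and 8 (E14) and 12 (E18). Whether these differences between classes differ between libraries was not tested.

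Intermediate progenitors, the dividing daughters of radial glia that form neurons, kept some of the genes. Zbtb20 was higher in them than in radial glia, at 531, 82.9 and 249 CPM, with log2 ratios of radial glia over intermediate progenitors of -0.37, -0.73 and -0.14 and no interval reaching 0. Aldoc was at 175, 10.99 and 74.1 CPM, so its order over libraries was that of radial glia. Slc1a3 stood at 14.1, 5.01 and 5.44 CPM and Mt3 at 15.5, 9.07 and 6.80 CPM, well below radial glia of the same library. All 10 genes were highest in the library labelled E14 in this class as well. So were 46.7% of its 9434 genes of at least 5 CPM. Sparcl1, Clu, Luzp2 and Apoe were under 10 CPM there. For Sparcl1 the interval of E18 over E14 reached 0, at a log2 ratio of -0.66 (-1.40 to 0.16). Luzp2 had no UMI in this class of the library labelled E16 and was at 0.0906 CPM in that labelled E18.

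**Figure D3:**
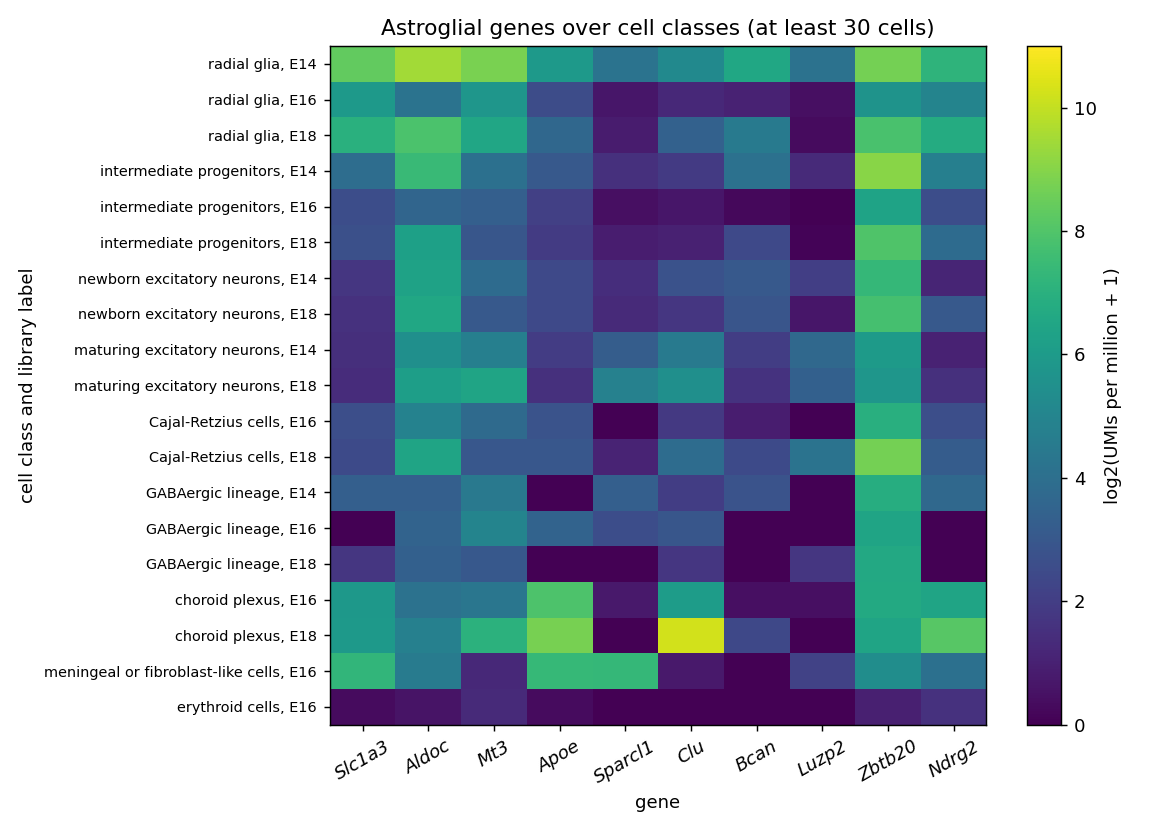
Level of the 10 genes as log2 of CPM plus 1 (colour) in each cell class with at least 30 cells, with 1 row for each class and library label. Radial glia labelled E14 are bright for all 10 genes, Clu is brightest in choroid plexus labelled E18, and the darkest squares include genes with no UMI.

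For several members radial glia were not the class with the highest level. Apoe was at 3211, 3956 and 1822 CPM in microglia (10, 7 and 12 cells) and at 3725, 2267 and 1093 CPM in endothelial cells (7, 16 and 3 cells). Mural cells, the contractile cells around vessels, had 2265, 904 and 1338 CPM of Apoe in 7, 14 and 14 cells. Radial glia held 11.9%, 7.17% and 14.3% of all Apoe UMIs of their library. Sparcl1 was at 867, 341 and 813 CPM in endothelial cells. Choroid plexus, the epithelium that makes cerebrospinal fluid, was found only in the libraries labelled E16 (154 cells) and E18 (55 cells). There the 65.8 and 1218 CPM of Clu, the 244 and 423 CPM of Apoe and the 85.3 and 285 CPM of Ndrg2 lay above the radial glia of the same library. Mt3 was above radial glia in choroid plexus labelled E18, at 131 CPM, and below them in that labelled E16, at 19.2 CPM. Slc1a3 was at 148 CPM in 106 meningeal or fibroblast-like cells labelled E16, above the 61.4 CPM of radial glia. Among named classes of at least 30 cells, only Bcan was highest in radial glia in all 3 libraries. In the library labelled E16 that rank rests on 48 UMIs, at 1.07 CPM. There the intervals of its ratios to intermediate progenitors and to all neurons reached 0.

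Cluster 17, led by the signalling genes Fgf17 and Fgf8 and given no cell class, held 393 cells labelled E16 and 30 labelled E18. There, in E16-labelled cells, Mt3 was at 270 CPM and Apoe at 23.2 CPM, which is 4.98-fold and 4.07-fold above radial glia. Zbtb20 there was at 160 CPM, 3.18-fold above. Aldoc and Ndrg2 did not differ from radial glia beyond the counting interval. In E18-labelled cells Mt3 was again higher in cluster 17, at 486 CPM, and Aldoc was lower, at 102 CPM.

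To compare single cells of different depth, each was thinned to 2000 UMIs, which left out 4, 20 and 16 shallower radial glia in label order. At this depth a UMI of Aldoc was found in 68.2%, 3.44% and 33.2% of radial glia (exact binomial intervals 63.6 to 72.6, 2.81 to 4.17, 31.1 to 35.4). In neurons, with unthinned medians of 12320, 8427 and 8879 UMIs, the shares were 10.03%, 5.94% and 13.5%, so in E16-labelled cells Aldoc was found less often in radial glia than in neurons. For Slc1a3 the shares were 40.4%, 11.7% and 22.04% in radial glia and 0.453%, 0.132% and 0.336% in neurons. Erythroid cells, which should lack these genes, numbered 124 in the library labelled E16. Their median was 32391 UMIs, against 13574 in radial glia of that library. An equal number of UMIs from free RNA per cell would therefore weigh less in the erythroid cells. The limits that follow can be too low for radial glia on that account, which was not tested. At 2000 UMIs, Ndrg2 was found in 0.806% of them and the other 9 genes in none, which allows up to 2.42% for each of the 9 by 3 counts and up to 2.93% by the exact interval, while that for Ndrg2 reaches 4.41%. Sparcl1 and Luzp2 were each found in 0.103% of radial glia labelled E16, Bcan in 0.206%, Clu in 0.413% and Apoe in 0.963%, so these 5 shares lie under that limit. Summed over all UMIs, Apoe was at 0.244 CPM (0.00618 to 1.36) and Clu at 0 UMIs (up to 0.901 CPM) in the erythroid cells, below their intervals in radial glia of that library. Bcan, Sparcl1 and Luzp2 also had 0 UMIs there, and their intervals in radial glia reach below 0.901 CPM. The shares of Slc1a3, Mt3 and Zbtb20 lay above the exact limit with their intervals, the interval of Aldoc reached below it, and the 6.02% of Ndrg2 (5.18 to 6.94) lay above its own.

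Of all kept cells, 1003, 3702 and 2831 had at least 1 UMI of Sox2, the stem cell transcription factor, and 425, 2805 and 1860 of these were radial glia. Thinned to 2000 UMIs, which left out 4, 13 and 9 of them, 23.5%, 1.11% and 8.97% had at least 3 of the 10 genes (20.9 to 26.3, 0.799 to 1.505, 7.94 to 10.1). Unthinned, the shares were 61.3%, 31.6% and 62.0%, so those of the libraries labelled E14 and E18 were close before thinning. Among Sox2-positive radial glia alone the thinned shares were 50.9%, 0.787% and 12.2%. No member was found in 3.55%, 66.4% and 25.2% of them. The mean number of members per cell was 2.65, 0.409 and 1.26.

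**Figure D4:**
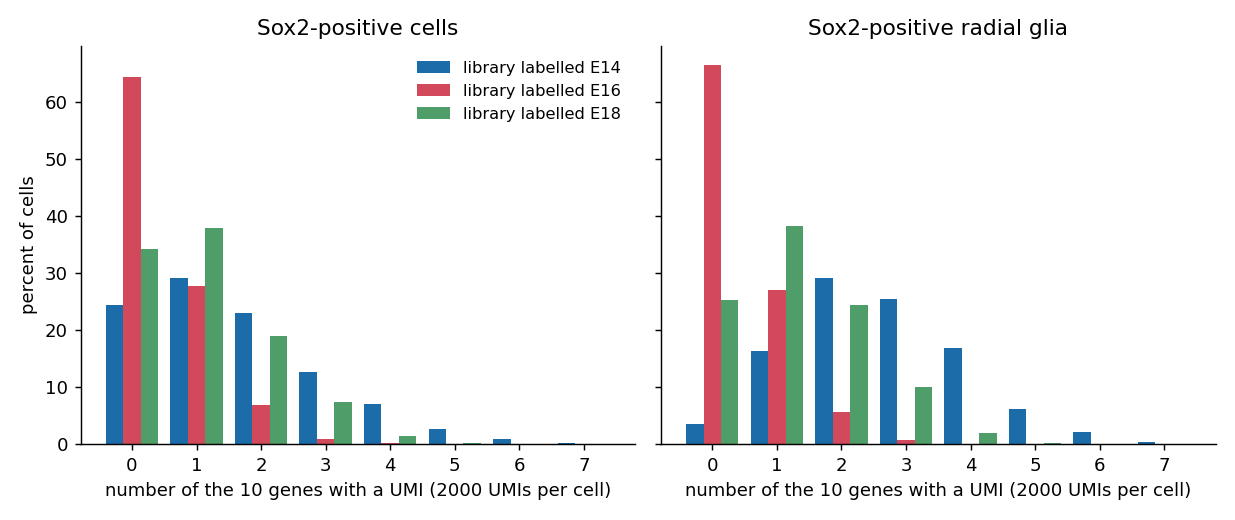
Percent of cells in which 0 to 7 of the 10 genes had a UMI, with every cell thinned to 2000 UMIs, for all Sox2-positive cells (left) and Sox2-positive radial glia (right) in the 3 libraries. Most cells labelled E16 have none of the genes, and in radial glia labelled E14 the commonest number is 2.

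Summed over Sox2-positive cells of any class, 2 members did not peak in the library labelled E14. They were highest in that labelled E18, as were 24.4% of the 10099 genes of at least 5 CPM in these cells. Of those genes, 44.9% were highest in the library labelled E14. Clu was at 22.3, 4.59 and 56.5 CPM, 1.30 (1.13 to 1.48) higher in E18 than in E14 on the log2 scale, and Ndrg2 at 77.0, 29.9 and 89.3 CPM. Apoe was at 31.7, 18.0 and 29.4 CPM, and its E14 and E18 levels overlapped within the interval. In radial glia the same 3 genes were highest in the library labelled E14. The share of Sox2-positive cells that were radial glia differed. It was 425 of 1003 in the library labelled E14, 2805 of 3702 in that labelled E16 and 1860 of 2831 in that labelled E18.

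Pairs of members were counted in Sox2-positive cells against the number that their separate shares give. Of the 45 pairs, 1, 16 and 9 were never found together in label order, so only pairs with at least 5 expected cells are described, 28, 13 and 25 of them. The log2 odds ratio was above 0 in 24, 10 and 20 of these, with an interval wholly above 0 in 16, 3 and 9, and its median was 1.27, 0.21 and 0.32. Slc1a3 and Mt3 were found together in 91 of 999 cells labelled E14 where 39.0 were expected, a log2 odds ratio of 2.48 (1.98 to 2.98), in 74 of 3689 labelled E16 where 44.8 were expected, and in 77 of 2822 labelled E18 where 48.0 were expected. Aldoc and Mt3 were found together in 149 cells labelled E14 (87.0 expected) and in 122 labelled E18 (80.7 expected), and in 8 labelled E16 (13.9 expected), where the interval of the log2 odds ratio, -1.83 to 0.20, reaches 0. Among Sox2-positive radial glia alone 33, 10 and 21 pairs had at least 5 expected cells, with medians of 0.31, 0.43 and 0.15 and an interval wholly above 0 in 4, 2 and 1 of them.

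Detection of the members and of Hmga2 did not exclude each other. For the library labelled E16, at least 3 members were found in 1.73% of the 1099 thinned Sox2-positive cells with a Hmga2 UMI (1.04 to 2.69) and in 0.849% of the 2590 without (0.533 to 1.28), and these intervals overlap. For that labelled E18 the shares were 18.6% of 70 cells (10.3 to 29.7) and 8.72% of 2752 (7.69 to 9.84), and these do not. In Sox2-positive radial glia alone, which were 64 of the 70 and 1789 of the 2752, the shares were 20.3% (11.3 to 32.2) and 11.9% (10.4 to 13.5), and these overlap. Among cells labelled E14 only 6 such cells had a Hmga2 UMI.

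The gene whose pattern was most like that of the 10 genes summed was Psap, which encodes the lysosomal protein prosaposin. Over 19 class-by-library sums of at least 30 cells, its Pearson correlation with the summed members was 0.953, the highest of 6150 genes, and its level in radial glia was 281, 78.5 and 140 CPM. Vegfb (0.919), Hsd17b10 (0.897) and Creld2 (0.889) were also among the 10 highest, as were Pecr, Galnt2, Xpnpep1, Aldh9a1 and Cops7a, at 0.877 to 0.884. The 19 sums share libraries and cell classes, and the abundant members weigh most. Of the 2 highest sums, radial glia labelled E14 (2253 CPM) held mostly Aldoc, Mt3, Zbtb20 and Slc1a3, and choroid plexus labelled E18 (2233 CPM) mostly Clu, Apoe and Ndrg2, so these values are descriptions only.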

How the data were processed

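Cells of embryonic rat cortex were analysed from UMI count matrices deposited by the authors, made with Cell Ranger 6.0.1 against build mRatBN7.2, per the submitters' processing notes; the counts are whole and not normalized. Barcodes with at least 1000 genes and at most 10% mitochondrial UMIs were kept (4444, 5193 and 5690 in label order). Scrublet (Scanpy 1.11.5) scored doublets, and the highest 158, 216 and 259 were removed, at 0.8% of cells per 1000 cells; its own threshold marked 0.0385% of the library labelled E16, so it had not worked there. Cells were clustered without the listed genes, with no integration (2000 variable genes, 30 components, 15 neighbours, leidenalg 0.10.2, resolution 1).

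The 27 clusters were named from markers of 14 classes. The naming rule was settled after the clusters had been seen, and 2 stayed unnamed. Neuron clusters that the rule could not place in a single neuron class, clusters 4 and 13, count only among all neurons. The best match of cluster 13 was Cajal-Retzius cells, with 3 of their markers raised. A class name means cells with such markers.

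UMIs were summed per class and library. Each label has 1 library, so no test was run and all intervals cover counting error only. They are exact Poisson, Clopper-Pearson or conditional binomial limits (scipy 1.17.1). Only the conditional binomial limits of the ratios were checked, on simulated Poisson counts of genes of at least 20 CPM. Lower levels and the 1 CPM added were not covered by that check. Odds ratios carry normal-approximation limits. UMIs are molecules, and variation between embryos was not measured. Members and lists were chosen with earlier results of these data known. All 10 members are named; of other lists, the relatives and the 3 highest and lowest ratios; and the 10 genes most correlated with the summed members, of which 1 is not reported here. Cell filters, doublet removal, clustering, thinning depth, the Sox2 minimum and the pseudocount were varied.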

Additional observations from a re-analysis of the deposited data

Results flagged for a closer look

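In 8 comparisons of 6 members a ratio between libraries had opposite signs in radial glia and in all neurons, with neither counting interval reaching 0. The share of all genes that did so is not given here, so the count is a description only. For E18 over E14 in radial glia and in neurons, the log2 ratios were -1.57 and 0.63 for Aldoc, -2.29 and 0.52 for Mt3, -3.36 and 0.32 for Sparcl1, -0.86 and 0.40 for Zbtb20, and -0.40 and 0.98 for Ndrg2. For E16 over E14 they were -3.36 and 0.63 for Apoe and -2.22 and 0.91 for Ndrg2. For E18 over E16 they were 1.12 and -0.69 for Apoe. With 1 library per label the differences were not tested. Neurons were of different make-up: newborn excitatory neurons were 940, 3 and 829 cells in label order. The part of that make-up was not tested. The neuron levels of Apoe and Ndrg2 were under 6 CPM in each library.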

How the results depend on the processing

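No reported median changed its direction, except in cluster 11 and except that the ratio of radial glia over all neurons in the library labelled E16 lay between -0.14 and 0.07. With 10 CPM added, the medians in radial glia were -2.23 (E16 over E14), 0.85 (E18 over E16) and -1.37 (E18 over E14), and those of radial glia over all neurons 2.64 (E14) and 1.07 (E18); the comparison with all neurons was chosen after seeing the data. The planned ratio over newborn neurons was 3.30 in the library labelled E14 and 1.49 in that labelled E18, and 2.42 and 0.81 with 10 CPM added; in the library labelled E14 it was 2.79 with the looser cell filter and 2.73 at resolution 0.5. With 3 newborn neurons, that labelled E16 gave no such ratio. The ratio over all neurons in the library labelled E14 was 3.01 with the stricter filter and 3.59 at resolution 0.5, and in that labelled E18 it was 1.19 with each library clustered on its own. Other settings chosen after seeing the data gave 3 medians each: in all Sox2-positive cells they were -2.31, 1.15 and -0.98, in cluster 1 they were -3.07, 0.57 and -2.19, and in cluster 5 -3.11, 1.76 and -1.49. In cluster 11, with 12 cells labelled E16, they were -1.23, -0.71 and -1.86 with genes at 0 taken at 3 counts, and with 1 CPM added instead the first was -4.19 and the second 0.49. The share of Sox2-positive cells with at least 3 members was 61.3% and 62.0% in the libraries labelled E14 and E18 without thinning, so their order was lost. It was 10.2%, 0.324% and 1.62% in label order at 1000 UMIs per cell and 50.9%, 0.787% and 12.2% in radial glia alone, a set also chosen after seeing the data. It was 33.5% in the library labelled E14 with the stricter filter, and 30.6% and 10.4% in the libraries labelled E14 and E18 with at least 2 Sox2 UMIs. The background of genes 2-fold apart was 1.60% (E16 above E14), 0.245% (E18 below E16) and 0.769% (E18 above E14) at a minimum of 20 CPM, and 1.39% (E18 above E16) with no minimum. The stricter filter left too few neurons for the ratios over newborn neurons, and over all neurons in the library labelled E16. The cause of these changes was not tested. Depth limits Sparcl1 and Luzp2, with 27 and 16 UMIs in radial glia labelled E16. No paired analysis was possible because each label has 1 library and the labels give no replicate numbers.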
